A study of Mus musculus with 31 samples.

Results

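A group of 10 genes that hold the cell cycle back or belong to the core of the p53 pathway were followed through the RNA-seq libraries of a study of Xist deletion in mouse fibroblasts. They were Cdkn2a, Cdkn2b and Cdkn2c of the INK4 class, Cdkn1a and Cdkn1b of the CIP/KIP class, the pocket protein genes Rb1 and Rbl1, Trp53 and its regulator Mdm2, and Gdf15, a secreted factor. The genes were taken by symbol from the deposited exon table, with 1 transcript per symbol (that with the highest total), and all 10 of 10 were found among 24470 symbols. None lies on the X chromosome.

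Cyclin-dependent kinases drive a cell from G1 into S phase by phosphorylating the pocket proteins, which otherwise hold E2F transcription factors inactive. INK4 proteins bind the cyclin D kinases CDK4 and CDK6, whereas CIP/KIP proteins act mainly on CDK2 complexes. The protein p53, encoded by Trp53, is a transcription factor that is stabilised by DNA damage and other stresses. It activates Cdkn1a, Gdf15 and Mdm2, and the MDM2 ubiquitin ligase in turn marks p53 for degradation. The second product of Cdkn2a, ARF, binds MDM2 and so stabilises p53, and in cultured fibroblasts Cdkn2a and Cdkn2b are known for their rise as cells approach senescence.

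The series held 31 samples, of which 17 were ATAC-seq, 8 were ChIP-seq and 6 were RNA-seq libraries, and the RNA-seq libraries were used here. All 6 came from dermal fibroblasts of female hybrids between CAST/Ei and 129/Sv/Jae, with no treatment named, and Xist is the noncoding RNA that silences the inactive X. The groups, of 2 libraries each, were wild type (WT), line 1 (XaWT XiΔXist) and line 2 (XaWT XiΔXist #2, a second cell line). In both lines the X that is active carried an intact Xist and the inactive X a deleted one, and the labels of the ATAC-seq samples place the deletion after X inactivation. The deletion was read in 2 cell lines, so the deletion and other differences between one cell line and another cannot be told apart. The labels call the 2 libraries of a group biological replicates without naming separate cultures or animals, so p-values measure the spread between these libraries.

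Counts used per library ranged from 3812310 to 7067515, and replicate 1 was the shallower library in each group. Xist, the deleted gene, had 633 and 429 CPM (read counts scaled to a common library size) in the WT libraries, 1.08 and 0.273 in those of line 1, and 0.969 and 0.282 in those of line 2. The summed level of 15 fibroblast markers, among them collagens, was 6001 to 10003 CPM in every library. Within that list Dcn was highest in line 1, at 243 and 156 CPM, against 61.9 and 26.9 for WT, with line 2 at 28.6 and 19.7. Fap was highest in line 2, at 8.00 and 8.74 CPM, against 0.505 and 1.76 for WT, with line 1 at 0.541 and 0.819. Dcn for line 1 and Fap for line 2 were the only fibroblast markers called against WT by edgeR's test given below. Sums over markers of other cell types were far lower but differed between groups. Keratinocyte markers (9 genes) had 78.6 and 101 CPM in the WT libraries, 11.4 and 10.1 in those of line 1, and 33.2 and 34.5 in those of line 2. Endothelial markers (8 genes) had 12.6 and 10.7, 3.24 and 3.68, and 6.78 and 6.20 in the same order, and melanocyte and Schwann cell markers (9 genes) had 29.6 and 21.0, 66.5 and 63.7, and 19.4 and 14.9. Without Mitf, which had 11.6 and 9.44 CPM in the WT libraries against 55.4 and 54.5 in those of line 1, the melanocyte and Schwann sum was 17.9 and 11.5 in WT and 11.1 and 9.28 in line 1, and Ngfr of that list went from 5.31 and 1.92 to 0.270 and 0.273. Without Krt19 the keratinocyte sum was 49.0 and 50.4 in WT and 11.4 and 9.69 in line 1, and without Kdr the endothelial sum was 6.82 and 3.52 in WT and 3.24 and 3.68 in line 1, which overlap. Leukocyte markers (10 genes) summed to 18.6 to 30.3 CPM and adipocyte markers (6 genes) to 12.4 to 40.0 CPM. The leukocyte range hides a difference between groups, because Lyz2 was lower in line 1 (4.87 and 1.91 CPM) than for WT (11.4 and 12.2). Leaving out Lyz2, line 1 libraries had the highest leukocyte sums, 25.4 and 27.0 CPM. WT libraries then held 8.34 and 6.40 CPM, line 2 libraries 11.6 and 12.3. Tyrobp of the leukocyte list, Krt1 of the keratinocyte list and Dct of the melanocyte list were at 0 in all 6 libraries. Krt5, Krt14, Cdh1 and Epcam of the keratinocyte list had at most 0.505 CPM in any library. Krt10 had 8.08 and 5.92 CPM in WT and 8.92 and 8.33 in line 1, while Dsp went from 33.3 and 39.4 to 1.08 and 0.546. In the WT libraries Pecam1, Cdh5, Tie1 and Vwf of the endothelial list had at most 0.253 CPM. Whether these sums reflect other cell types was not tested, nor was their part in the results below.

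Promoters are shown for 4 of the genes, because Gdf15 carried the one called change, Cdkn1a and Mdm2 are textbook p53 targets and Rbl1 is a textbook E2F target. Each is the stretch of 250 bases before the outermost annotated start, 5′ to 3′ on the gene's strand (RefSeq, GRCm38.p6), and 9 of the 10 genes matched that table. Capitals mark matches to 1 of 3 motifs searched on both strands: the E2F motif TTTNGCGC, the composite ATF4-CEBP motif TGATGNAA, and the p53 half-site by its name.
Gdf15, chr8:70632457-70632706, minus strand: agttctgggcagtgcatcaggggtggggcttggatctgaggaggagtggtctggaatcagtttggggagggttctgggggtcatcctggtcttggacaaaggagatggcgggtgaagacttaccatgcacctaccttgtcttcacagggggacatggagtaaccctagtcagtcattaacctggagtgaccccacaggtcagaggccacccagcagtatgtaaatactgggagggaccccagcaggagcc
Cdkn1a, chr17:29090729-29090978, plus strand: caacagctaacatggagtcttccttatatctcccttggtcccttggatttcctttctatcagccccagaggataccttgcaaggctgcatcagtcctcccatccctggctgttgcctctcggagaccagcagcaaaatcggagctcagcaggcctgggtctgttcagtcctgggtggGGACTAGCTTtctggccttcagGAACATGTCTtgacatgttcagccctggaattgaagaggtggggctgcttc
Mdm2, chr10:117710759-117711008, minus strand: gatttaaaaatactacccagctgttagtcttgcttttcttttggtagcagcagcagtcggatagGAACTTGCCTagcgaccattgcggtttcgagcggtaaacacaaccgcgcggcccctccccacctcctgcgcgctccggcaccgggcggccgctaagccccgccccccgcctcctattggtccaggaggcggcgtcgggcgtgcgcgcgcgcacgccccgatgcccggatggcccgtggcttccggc
Rbl1, chr2:157204535-157204784, minus strand: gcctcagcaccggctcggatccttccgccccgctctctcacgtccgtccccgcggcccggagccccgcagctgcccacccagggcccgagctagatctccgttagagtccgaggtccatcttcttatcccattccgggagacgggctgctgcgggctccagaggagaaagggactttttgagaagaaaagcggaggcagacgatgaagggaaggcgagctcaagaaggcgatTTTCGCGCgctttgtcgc
The Rbl1 promoter held an E2F motif at -18, counted from the start, and the motif was in 1.15% of 27025 promoters of that length. A p53 half-site was found at -73 and -51 in Cdkn1a, at -186 in Mdm2 and at -75 in Trp53, and such a match was in 7.16% of all promoters. The Gdf15 window held none of the 3 motifs, and no window of the 9 genes held the ATF4-CEBP motif, which was in 3.53% of all promoters. The Cdkn1a and Gdf15 windows lie before upstream starts, whereas the transcripts counted here began at 29093769 and 70632095. The bases directly before those counted starts were not searched. These matches describe letters in the windows and were not tested for binding.

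The level of each gene was compared per kilobase of transcript, because read counts of long and short transcripts are not on one scale. In WT the order ran from Cdkn2a at 128 ± 19.5 CPM per kilobase (SD, n = 2) through Trp53 at 91.3 ± 4.81, Cdkn2b at 84.0 ± 7.17 and Cdkn1a at 78.8 ± 10.5. Cdkn2c had 61.5 ± 5.50, Cdkn1b 59.2 ± 3.18, Mdm2 40.8 ± 2.61 and Rbl1 20.1 ± 0.70 CPM per kilobase. Rb1 at 2.98 ± 1.12 and Gdf15 at 1.69 ± 0.625 CPM per kilobase stood at the low end. Trp53 and Cdkn2b, Cdkn2b and Cdkn1a, and Cdkn2c and Cdkn1b overlapped over their libraries, while the other neighbours in WT did not.

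Cdkn2a, the INK4 gene with the highest level, thus stood above Trp53 in WT, and it led the order in both deletion lines too. In line 1 its mean was 130 CPM per kilobase, followed by Cdkn2b at 112, Trp53 at 94.6, Cdkn1a at 90.4 and Cdkn2c at 83.8, and each of these overlapped the next. In line 2 the order was Cdkn2a at 120, Cdkn2b at 87.9, Trp53 at 86.4, Cdkn1a at 68.9, Cdkn2c at 67.7, Cdkn1b at 48.6 and Mdm2 at 39.9 CPM per kilobase. Rbl1, Rb1 and Gdf15 took the last 3 places in every group, with line 1 means of 26.3, 5.02 and 0.263 and line 2 means of 20.5, 2.27 and 1.53 CPM per kilobase. The Cdkn2c level depends on its transcript, since the mean over its transcripts was 48.8 in WT and 54.7 in line 2, which would place it after Cdkn1b in WT.

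**Figure D1:**
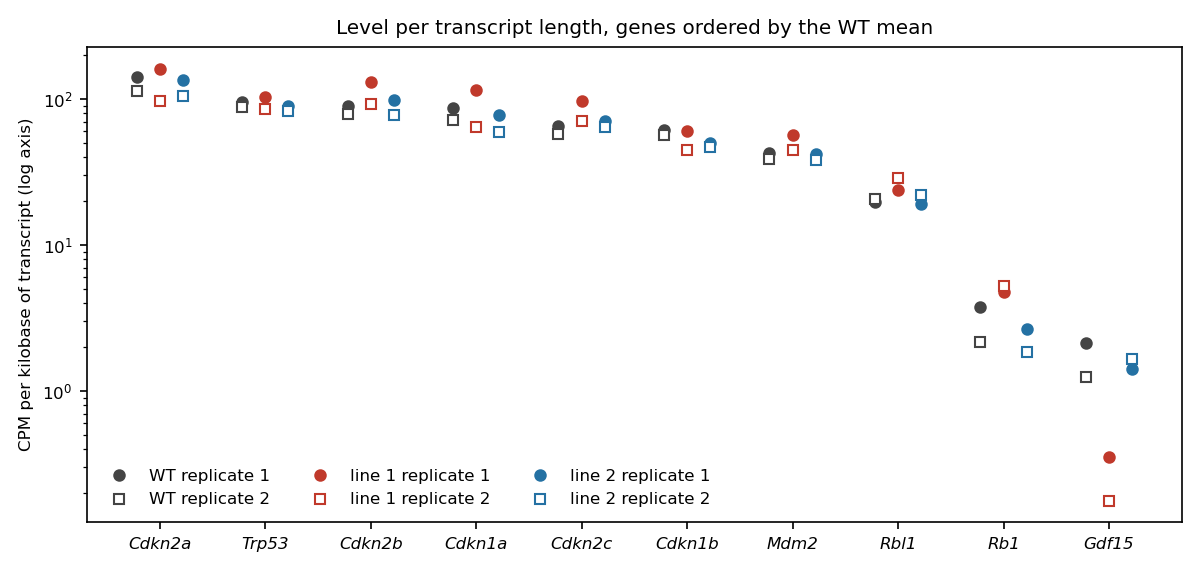
Level of the 10 genes per kilobase of transcript, in CPM per kilobase on a log axis, with 1 point per library and 2 libraries per group. Cdkn2a is highest in the mean of each group and Gdf15 lowest, and the line 1 points of Gdf15 lie below those of WT and line 2.

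Against WT, 1 of the 10 genes passed the test in line 1, Gdf15, which was lower, and 9 did not (edgeR's quasi-likelihood test, Benjamini-Hochberg adjusted p under 0.05 over 12910 genes). Of all genes tested, 14.3% were called in that comparison, 6.75% higher and 7.55% lower. In line 2 no gene of the 10 was called, against 3.58% of all genes (1.73% higher and 1.85% lower), and none had an unadjusted p under 0.05 or was called by DESeq2. Between the lines 1 of 10 was called, again Gdf15, higher in line 2, against 12.6% of all genes (6.87% higher and 5.76% lower in line 2). The shares among the 10 genes were therefore near those of all genes. Both comparisons with WT use the same 2 WT libraries.

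The fit with replicate number as a block, which removes what libraries of one number share, called 6 of the 10 genes in line 1. They were Gdf15, lower, and Cdkn2b, Cdkn2c, Mdm2, Rb1 and Rbl1, higher. With the block 32.4% of all genes were called in line 1, 16.3% higher and 16.1% lower. The same fit called none of the 10 in line 2, against 12.1% of all genes (5.87% higher and 6.25% lower), and 4 of 10 between the lines, against 27.2% (13.4% higher and 13.8% lower in line 2). Those 4 were Gdf15, higher in line 2, and Mdm2, Rb1 and Rbl1, lower in line 2. The 5 genes that the block added in line 1 were those whose line 1 libraries both lay above both WT libraries, a pattern that 25.4% of all genes tested showed. Ranges that did not overlap in either direction were seen in 6 of the 10 genes and in 51% of all genes, with Gdf15 the one below WT against 25.6% of all genes. Between the lines 5 of the 10 genes did not overlap, 1 higher and 4 lower in line 2, against 48.3% of all genes (23.9% higher and 24.4% lower).

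**Figure D2:**
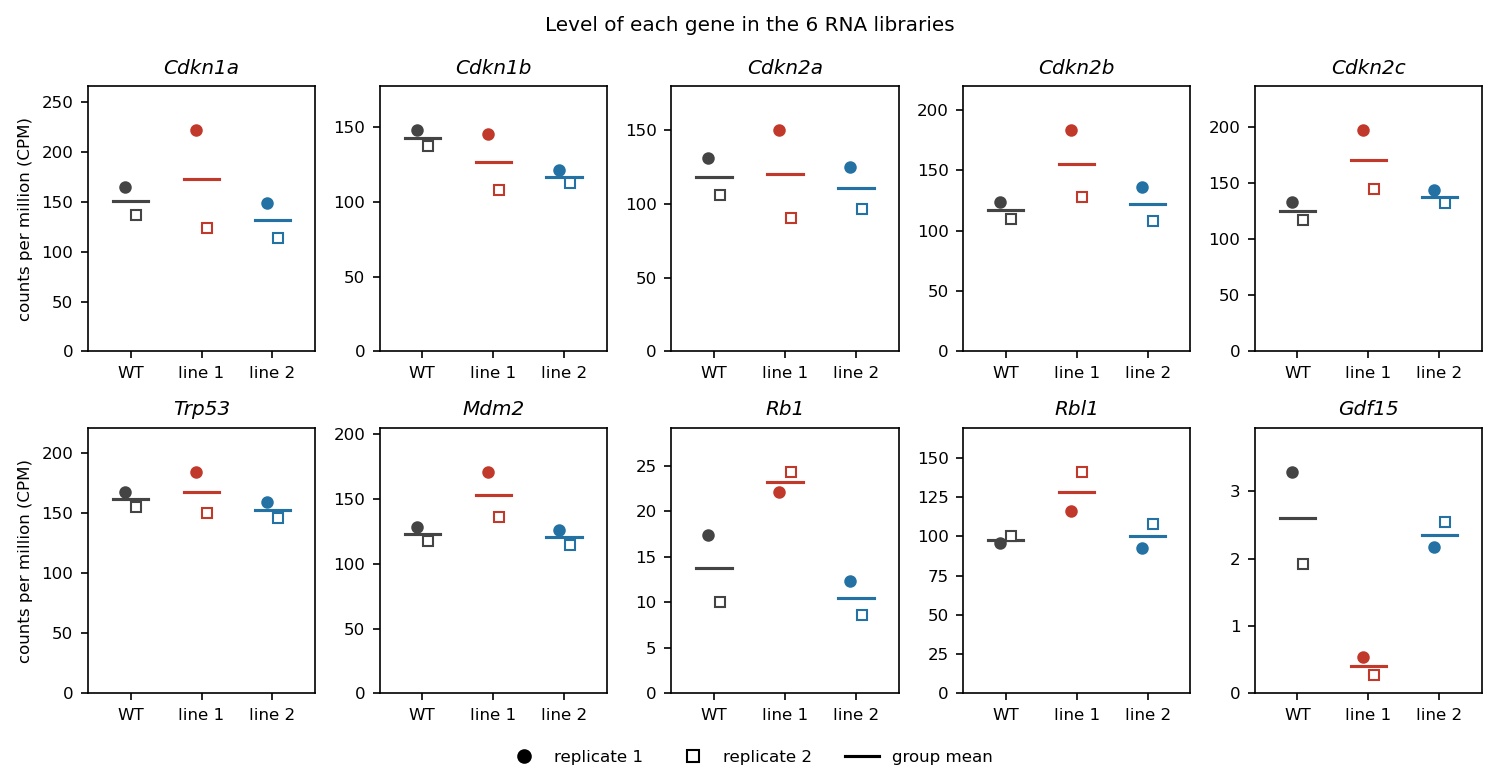
CPM of each of the 10 genes in each of the 6 libraries, 1 panel per gene with its own axis. Filled circles are replicate 1, open squares replicate 2 and bars the group means, for WT, line 1 and line 2. Both line 1 points lie above both WT points for Cdkn2b, Cdkn2c, Mdm2, Rb1 and Rbl1 and below them for Gdf15.

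Cdkn2a (chr4:89274473-89294619, minus strand, mm10) had 131 and 106 CPM in the WT libraries, 150 and 90.6 in those of line 1, and 125 and 96.7 in those of line 2. The 3 groups overlapped, and replicate 1 was the higher library in each. Against WT, the log2 fold change of Cdkn2a was 0.01 in line 1 (SE 0.27, 95% interval -0.63 to 0.66, adjusted p = 0.984) and -0.10 in line 2, neither called. Cdkn2a is read from alternative first exons that join shared later exons, giving p16INK4a or ARF, and the deposited table has a row for each transcript. The 2 rows share most of their reads, so their difference holds the reads of the ARF row beyond those of the p16INK4a row. That difference was 59 and 54 counts in the WT libraries, 82.5 and 125 in those of line 1, and 75.5 and 58.5 in those of line 2. As a share of the ARF row it was 11.4 and 8.18% for WT, 14.9 and 18.8% for line 1, and 14.6 and 8.53% for line 2. Both line 1 shares lay above both WT shares, while line 2 spanned them. No test was made of this difference of rows. How strand was treated in counting is unknown here, so reads of antisense transcripts at this locus could not be told apart.

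Cdkn2b (chr4:89306289-89311032, minus strand), the neighbour of Cdkn2a that encodes p15INK4b, had 124 and 110 CPM in the WT libraries, 183 and 128 in those of line 1, and 136 and 108 in those of line 2. Line 1 lay above WT without overlap, whereas line 2 overlapped WT. For Cdkn2b, the line 1 log2 fold change was 0.41 (SE 0.21, 95% interval -0.10 to 0.91, adjusted p = 0.276), and 0.38 with the replicate block (adjusted p = 0.0296). In line 2 it was 0.06 and was not called.

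Cdkn2c (chr4:109660876-109666756, minus strand), which encodes p18INK4c, had 133 and 117 CPM in the WT libraries, 197 and 145 in those of line 1, and 144 and 132 in those of line 2. Line 1 was above WT in both libraries, and the lowest line 2 library lay just below the highest WT library. The log2 fold change in line 1 was 0.44 (SE 0.17, 95% interval 0.03 to 0.86, adjusted p = 0.156), and 0.43 with the replicate block (adjusted p = 0.0193). Without line 1 replicate 2 it was 0.65, and without line 1 replicate 1 it was 0.21. In line 2 the log2 fold change was 0.14.

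Cdkn1a (chr17:29093769-29100722, plus strand), which encodes p21 and is the best known p53 target, had 165 and 136 CPM in the WT libraries, 222 and 124 in those of line 1, and 149 and 114 in those of line 2. Line 1 spanned the whole WT range, and line 2 overlapped WT. The log2 fold change was 0.19 in line 1 (SE 0.29, 95% interval -0.51 to 0.90, adjusted p = 0.756), -0.20 in line 2 (adjusted p = 0.887) and -0.39 for line 2 minus line 1 (adjusted p = 0.517). The 2 line 1 libraries of Cdkn1a thus differed from each other by more than their mean differed from WT.

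Cdkn1b (chr6:134920401-134925525, plus strand), which encodes p27 and restrains cells that leave the cycle, had 148 and 137 CPM in the WT libraries, 145 and 108 in those of line 1, and 121 and 113 in those of line 2. Both line 2 libraries were below both WT libraries, and line 1 overlapped WT. Against WT, the log2 fold change of Cdkn1b was -0.18 in line 1 (95% interval -0.57 to 0.22, adjusted p = 0.569) and -0.29 in line 2 (95% interval -0.68 to 0.11, adjusted p = 0.538). Ranges below WT were found in line 2 for this gene alone of the 10, and for 23.9% of all genes tested; in either direction 48.8% of genes did not overlap and 24.9% lay above WT.

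Rb1 (chr14:73195502-73325791, minus strand), which encodes the retinoblastoma protein, had 17.4 and 10.1 CPM in the WT libraries, 22.2 and 24.3 in those of line 1, and 12.4 and 8.60 in those of line 2. Line 1 stood above both other groups, and line 2 overlapped WT. The log2 fold change in line 1 was 0.78 (SE 0.32, 95% interval 0.00 to 1.56, adjusted p = 0.177), and 0.84 with the replicate block (adjusted p = 0.0355). In line 2 it was -0.39 (95% interval -1.20 to 0.42, adjusted p = 0.743).

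The difference between the lines in Rb1, line 2 minus line 1, was -1.17 (SE 0.33, 95% interval -1.96 to -0.38, adjusted p = 0.0717), which missed the threshold. It passed with the replicate block (-1.22, adjusted p = 0.0113), with no filter on low counts (-1.15, adjusted p = 0.0115) and with DESeq2 (-1.16, adjusted p = 0.0484). Rb1 was lower in line 2 within both replicate numbers.

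Rbl1 (chr2:157145894-157204534, minus strand), which encodes the pocket protein p107, had 95.5 and 100.3 CPM in the WT libraries, 116 and 141 in those of line 1, and 92.6 and 108 in those of line 2. Line 1 lay above both other groups, and line 2 spanned WT. In line 1 the log2 fold change of Rbl1 was 0.39 (SE 0.14, 95% interval 0.04 to 0.74, adjusted p = 0.137), and 0.39 with the replicate block (adjusted p = 0.017). Without line 1 replicate 1 it was 0.52, and without line 1 replicate 2 it was 0.24. Line 2 minus line 1 was -0.36 (adjusted p = 0.19, and 0.0254 with the replicate block).

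Trp53 (chr11:69580359-69591873, plus strand) had 168 and 156 CPM in the WT libraries, 184 and 151 in those of line 1, and 160 and 146 in those of line 2. The 3 groups overlapped. Against WT, the log2 fold change of Trp53 was 0.05 in line 1 (SE 0.14, 95% interval -0.28 to 0.38, adjusted p = 0.879) and -0.08 in line 2, neither called. These values concern the Trp53 transcript, and p53 activity is set largely by protein stability, which RNA counts do not measure.

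Mdm2 (chr10:117688875-117710758, minus strand) had 129 and 117 CPM in the WT libraries, 171 and 136 in those of line 1, and 126 and 115 in those of line 2. Line 1 was above both other groups in both libraries. In line 1 the log2 fold change of Mdm2 was 0.31 (SE 0.15, 95% interval -0.04 to 0.67, adjusted p = 0.229), and 0.31 with the replicate block (adjusted p = 0.0383). In line 2 it was -0.03. Line 2 minus line 1 was -0.35 (adjusted p = 0.212) and -0.34 with the block (adjusted p = 0.0305).

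Gdf15 (chr8:70629393-70632095, minus strand), a member of the TGF-β family that p53 and the integrated stress response both induce, had 3.28 and 1.92 CPM in the WT libraries, 0.541 and 0.273 in those of line 1, and 2.18 and 2.54 in those of line 2. Line 1 was below both other groups, and the line 2 libraries lay within the WT range. These values rest on few counts, 12.5 and 12 for WT, 2 and 1.5 for line 1, and 9 and 17.5 for line 2, and the gene passed the filter on low counts through WT and line 2. It is the least abundant of the 10 genes in every library.

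The log2 fold change of Gdf15 in line 1 was -2.70 (SE 0.56, 95% interval -4.06 to -1.34, adjusted p = 0.0262). From the rounded counts alone, 4 in line 1 against 25 in WT, the log2 ratio was -2.76 with a 95% counting interval of -4.74 to -1.22, which covers counting error only. In line 2 the log2 fold change was -0.08 (95% interval -1.07 to 0.92, adjusted p = 0.994). The difference itself, line 2 minus line 1, was 2.62 (SE 0.56, 95% interval 1.27 to 3.97, adjusted p = 0.0302). Thus Gdf15 was lower in line 1 than in either other group.

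The Gdf15 calls were not stable across tools and libraries. DESeq2 gave -2.76 (adjusted p = 0.106) in line 1 and 2.64 (adjusted p = 0.147) between the lines, and the replicate block gave adjusted p = 0.0103 and 0.0113. The line 1 call was lost without WT replicate 1 (adjusted p = 0.114), line 1 replicate 2 (0.119), line 2 replicate 1 (0.059) or line 2 replicate 2 (0.0579). The call between the lines was lost without line 1 replicate 2 (0.129), line 2 replicate 1 (0.107) or line 2 replicate 2 (0.173). In a fit of WT and line 1 alone Gdf15 did not pass the filter. Keratinocyte and endothelial marker sums were also lowest in line 1, the endothelial sum through Kdr, and their part in the Gdf15 result was not tested.

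**Figure D3:**
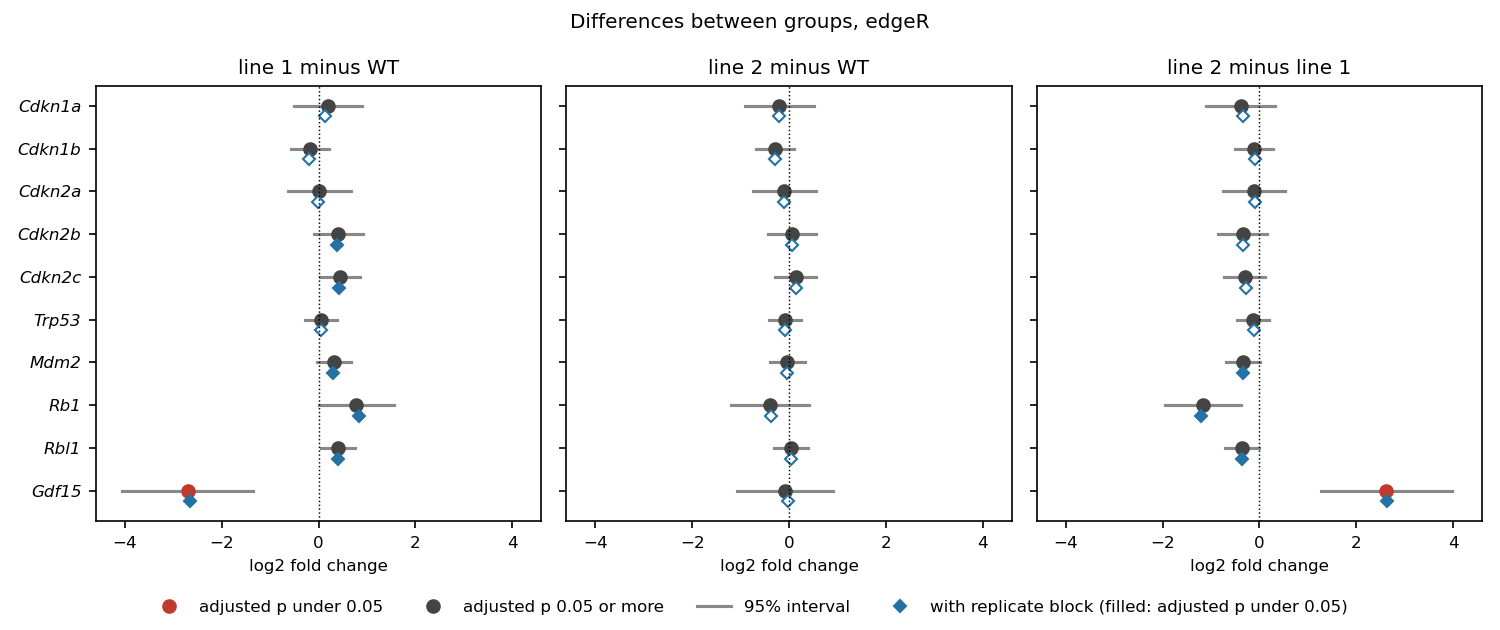
Log2 fold change of the 10 genes for line 1 minus WT, line 2 minus WT and line 2 minus line 1, with 2 libraries per group. Circles with 95% intervals are from edgeR's quasi-likelihood fit (red where adjusted p was under 0.05) and diamonds from the fit with the replicate block (filled where called). In line 1 the intervals of Gdf15, Cdkn2c, Rb1 and Rbl1 do not reach 0, and Gdf15 is the red point there and between the lines.

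As a group the 10 genes had a median log2 fold change of 0.25 in line 1, with 8 of 10 above 0, and of -0.08 in line 2, with 3 of 10 above 0. Over all genes tested the median was 0.01 in both comparisons, with quartiles of -0.24 and 0.29 in line 1 and of -0.17 and 0.19 in line 2. The median of the 10 genes for line 2 minus line 1 was -0.32, with Gdf15 alone above 0, against -0.01 over all genes.

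Most of the 10 genes, but not all, differed between replicate numbers in the same direction. Cdkn1a, Cdkn1b, Cdkn2a, Cdkn2b, Cdkn2c, Trp53 and Mdm2, 7 of 10, were higher in replicate 1 than in replicate 2 in all 3 groups, a pattern that 31.7% of all genes tested showed. Rbl1 was lower in replicate 1 in all 3 groups, as were 31.2% of all genes, and Rb1 and Gdf15 did not keep one order. Replicate number also goes with depth in these libraries, and the part of depth in this pattern was not tested.

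Over the 6 libraries, the genes whose log2 CPM was most like that of Gdf15 were Tulp4 (Pearson r 0.993), Cyp4f17 (0.992) and Lrrc24 (0.989), of 10093 genes compared. These correlations rest on 6 points that share their groups and are given as a description.

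Changes of the pathway genes that follow are on the log2 scale. Counts of calls in each list are to be read against 14.3% of all genes in line 1 and 3.58% in line 2. With the replicate block these shares were 32.4% and 12.1%. Of the genes tested, DESeq2 called 1854 in line 1 and 581 in line 2. The share of all genes at an unadjusted p under 0.05 was not worked out, so those counts have no background here. The remaining CDK inhibitor list held Cdkn1c, Cdkn2d, Cdkn3, a phosphatase that acts on CDKs, and Cdkn2aip, a partner of ARF. In line 1 Cdkn1c fell and the other 3 were not called, although Cdkn2aip was with the replicate block (log2 fold change -0.45, adjusted p = 0.0943, and 0.0203 with the block). Cdkn1c, an imprinted CIP/KIP inhibitor that encodes p57, had 62.4 and 37.6 CPM in the WT libraries, 0.27 and 0.273 in those of line 1, and 25 and 13.1 in those of line 2. Line 1 held 3 counts against 482 in WT, a log2 ratio of -7.44 (95% counting interval -9.72 to -5.88, edgeR adjusted p = 0.00139). The gene passed the filter on low counts through WT and line 2. Line 2 was below WT in both libraries but was not called (log2 fold change -1.41, SE 0.37, adjusted p = 0.125), and it was called with the replicate block (adjusted p = 0.002). The list's median was -0.23 in each line, and in line 2 it had 0 calls by edgeR, 1 at an unadjusted p under 0.05 and 1 by DESeq2.

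Among 15 cyclins, CDKs and CDC25 phosphatases, 1 rose and 1 fell in line 1. Cdc25b, a phosphatase that activates CDKs, rose by 0.53 (SE 0.11, adjusted p = 0.0266), and Ccnd2, a D-type cyclin, fell by 0.83 (SE 0.20, adjusted p = 0.0429) on the log2 scale. The list's median was 0.06 in line 1 and 0.03 in line 2, and in line 2 it had 0 calls by edgeR, 1 at an unadjusted p under 0.05 and 1 by DESeq2. The replicate block called 4 in line 1 and 1 in line 2. That 1 was Ccnd1, a D-type cyclin named after its values were seen, at 215 and 299 CPM in the WT libraries, 152 and 212 in those of line 1, and 72.9 and 136 in those of line 2 (line 2 log2 fold change -1.29, adjusted p = 0.116, and 0.00162 with the block). Of 16 E2F, pocket protein and DREAM complex genes, Tfdp2, an E2F partner, fell by 0.66 in line 1 (SE 0.16, adjusted p = 0.0411). E2f4, a repressor E2F, fell by 0.59 in line 2 (SE 0.11, adjusted p = 0.0461). That list's medians were 0.02 and -0.05, near the 0.01 of all genes, and the replicate block called 3 of its genes in line 1 and 1 in line 2.

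Genes of proliferating cells, 23 in all, had 0 calls in either line, 0 at an unadjusted p under 0.05 and 0 by DESeq2. Their median log2 fold change was 0.07 in line 1 and -0.04 in line 2. The replicate block called 3 of the 23 in line 1, 1 higher and 2 lower, and 0 in line 2, against 32.4% and 12.1% of all genes.

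Of 15 tested p53 regulators, 2 rose and 1 fell in line 1, against 6.75% and 7.55% of all genes. Mdm4, the MDM2 partner that inhibits p53, rose by 0.72 (SE 0.16, adjusted p = 0.0309), and Trp53bp1, a DNA damage response protein, by 0.54 (SE 0.12, adjusted p = 0.0323). Trp63 is a p53 relative of squamous epithelium that is also on the keratinocyte marker list. It had 7.07 and 4.16 CPM in the WT libraries against 1.08 and 0.409 in those of line 1, and fell by 3.03 (SE 0.64, adjusted p = 0.0279). Like Cdkn1c, it passed the filter on low counts through WT and line 2. In line 2 the list had 0 calls by edgeR, 1 at an unadjusted p under 0.05 and 0 by DESeq2. With the replicate block 4 were called in line 1 and 1 in line 2.

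Of 29 tested p53 targets beyond the members, 1 was called in line 1. Tnfrsf10b, a death receptor, rose by 0.51 (SE 0.13, adjusted p = 0.0466), but was not called by DESeq2. The list's median was 0.08 in line 1, with 16 of 29 above 0, and -0.04 in line 2, with 14 above 0. In line 2 it had 0 calls by edgeR, 4 at an unadjusted p under 0.05 and 0 by DESeq2. With the replicate block 7 were called in line 1, 5 higher and 2 lower, and 4 in line 2, against 32.4% and 12.1% of all genes.

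The integrated stress response list, which shares Gdf15 as a target with p53 but does not contain it, had mostly negative values. Its 16 genes had a median of -0.35 in line 1, with 2 above 0, and of -0.12 in line 2, with 0 above 0. One was called in line 1, Psat1, a serine synthesis enzyme, which fell by 0.45 (SE 0.11, adjusted p = 0.0399). With the replicate block 6 of the 16 were called in line 1, 1 higher and 5 lower, against 32.4% of all genes (16.3% higher and 16.1% lower), and 0 in line 2, against 12.1%. In line 2 edgeR made 0 calls, with 0 at an unadjusted p under 0.05 and 0 by DESeq2.

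Of 19 tested regulators of INK4 and KIP genes, 2 fell in line 1 and 0 were called in line 2, where 3 had an unadjusted p under 0.05 and 0 were called by DESeq2. With the replicate block 6 were called in line 1, 1 higher and 5 lower, and 3 in line 2, all lower. Tbx3, a T-box repressor of the Cdkn2a locus, had 102 and 95.7 CPM in the WT libraries, 30.5 and 27.0 in those of line 1, and 76.8 and 71.6 in those of line 2, and in line 1 it fell by 1.79 (SE 0.14, adjusted p = 0.000998). The line 2 log2 fold change of Tbx3 was -0.42 (adjusted p = 0.194, and 0.0266 with the replicate block, which called it). Smad3, a TGF-β effector, fell by 0.61 (SE 0.12, adjusted p = 0.0216). Of 3 tested neighbours of the INK4 locus, Elavl2, an RNA-binding protein of neurons, was lower in both lines. Elavl2 passed the filter on low counts through WT alone, the group where it was high. It had 0 counts in line 1, which with 3 counts over both libraries as the floor is at least 38.5-fold lower than in WT (the limit of the 95% counting interval of the log2 ratio, -4.94, is a smaller difference), and in line 2 its log2 ratio to WT was -4.88, with -6.78 to -3.48 as the 95% counting interval. Mtap and Klhl9, the other 2, were not called in either line.

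Of the 12 genes of the GDF15 receptor and TGF-β family list 6 passed the filter on low counts. Tgfb2, a TGF-β ligand, had 56.3 and 84.2 CPM in the WT libraries, 5.68 and 0.955 in those of line 1, and 80.0 and 103 in those of line 2, and in line 1 it fell by 4.67 (SE 0.61, adjusted p = 0.00541). In line 2, Inhbb, an activin subunit, rose from 6.32 and 3.04 CPM to 41.7 and 62.7 (log2 fold change 3.54, SE 0.48, adjusted p = 0.0209), and Tgfb3 rose by 0.98 (SE 0.17, adjusted p = 0.0357). The replicate block called 2 of the 6 in line 1 and 4 in line 2.

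Of the 17 calls against WT given by name in these lists, all 17 were kept with the replicate block, 16 with DESeq2 and 9 in fits of only the 2 compared groups, and none changed direction under any setting run. With 1 library fewer, 4 were kept without WT replicate 1 and 4 without WT replicate 2. Without a line 1 library 15 (replicate 1) and 13 (replicate 2) were kept, and without either line 2 library 5 were kept.

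**Figure D4:**
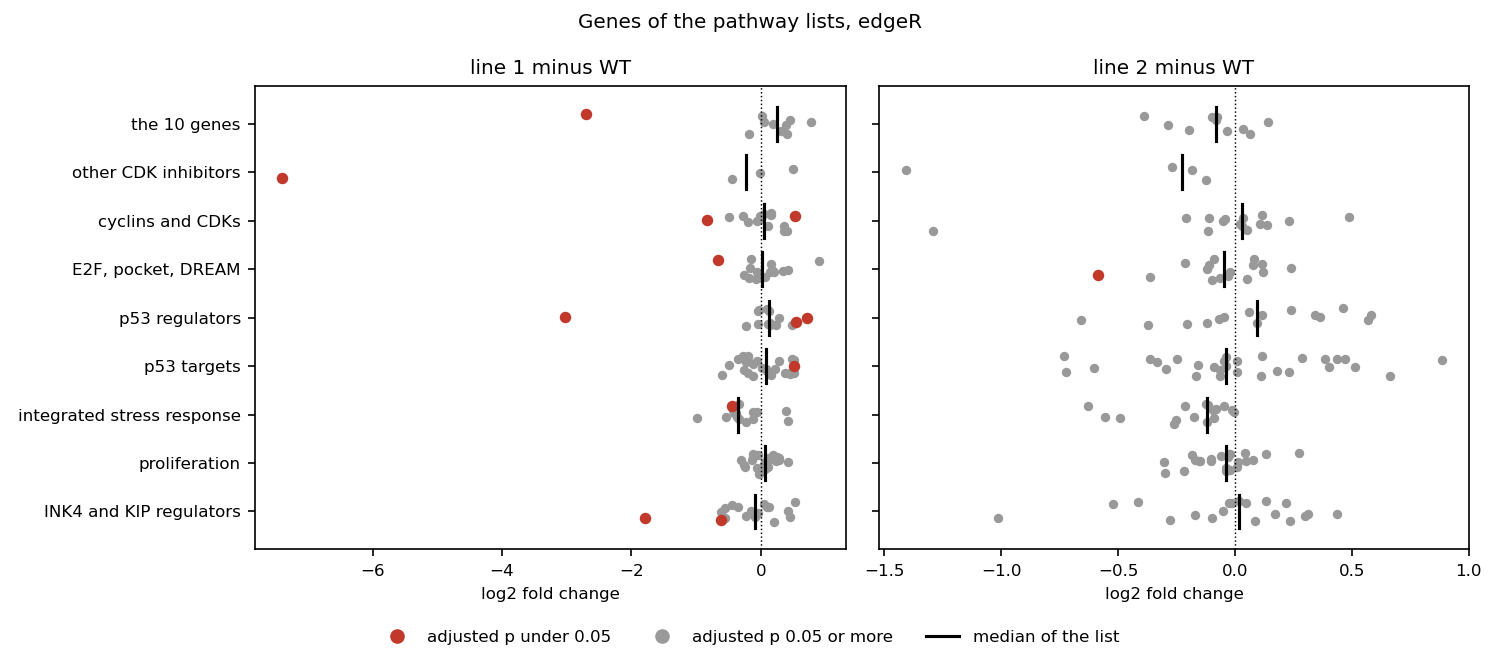
Log2 fold change against WT of the genes tested in each pathway list, line 1 and line 2 in separate panels with their own axes, 1 point per gene (red where edgeR's adjusted p was under 0.05) and a bar at the median. The stress response list has a median of -0.35 in line 1, where its summed level lay below both WT libraries in replicate 2 only. The medians of the cyclin, E2F, p53 target and proliferation lists lie between -0.05 and 0.08 in both lines.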

How the data were processed

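The 6 RNA-seq libraries were analysed. The authors deposited expected counts of exon reads per RefSeq transcript, made with HOMER without normalization per the file headers, in steps of 0.5. The submitters' processing notes also name TopHat2, Trim Galore 0.4.1, bedtools 2.25.0 and mm10. No source used here gives whether counting used the strand. Whole counts had been assumed when the design was set, so values were rounded, 0.5 upwards. Of 28972 transcripts 4502 were dropped, keeping the one with the highest total for each symbol. Library totals in the headers were 10506118.5 to 20090463.5, and counts used were 3812310 to 7067515.

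One edgeR model (version 4.0.16, R 4.3.3) with quasi-likelihood tests took in the 3 groups together, each with its own mean, after TMM scaling and filterByExpr. It tested 12910 genes with 3 residual degrees of freedom, a common biological coefficient of variation of 0.17 and a Benjamini-Hochberg threshold of 0.05. Log2 fold changes carry a prior count of 0.125 added to the counts. Alternatives were DESeq2 1.42.0, RLE scaling, no filter on low counts, replicate number as a block, only the 2 compared groups, the mean over transcripts, and leaving out each library. For the block alternative, replicate numbers from the labels were taken to pair libraries, while the main fit held no term for replicate number. The reason for the pairing was that the shift from replicate 2 to replicate 1, gene by gene, correlated in each pair of groups (Pearson 0.54 for WT with line 1, 0.59 for WT with line 2 and 0.53 for the lines). The fit was tested on simulated data for line 1 against WT (12731 genes). It called 30 of 33 genes raised 4-fold, 17 of 34 raised 2-fold and 1 of 34 raised 1.5-fold. Of genes lowered to 0.25, 0.5 and 0.667 of their level it called 29 of 33, 15 of 33 and 2 of 33. Among 12531 unchanged genes it called 9. These rates were not split by level, so they do not give the rate for a gene with as few counts as Gdf15. The ATAC-seq and ChIP-seq samples were not analysed here.

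The members and gene lists were chosen with earlier results of these data known. Named genes were all members, Xist, up to 4 genes per list with the smallest adjusted p under 0.05, and for a called member the 3 genes with the highest correlation at a mean log2 CPM of at least 3. Mtap, Klhl9, Cdkn2d, Cdkn3 and Cdkn2aip were named to complete short lists. Ccnd1 was named as the call its list gained with the block in line 2, and Tyrobp, Krt1 and Dct because they were at 0. Mitf, Krt19, Kdr, Lyz2, Ngfr and Dsp were named for their weight in marker sums, and Dcn and Fap for differences within the fibroblast list. Krt5, Krt14, Krt10, Cdh1, Epcam, Pecam1, Cdh5, Tie1 and Vwf were named for low or little changed levels within their marker lists. Bmp4, Ets1, Plk2 and E2f1 were named for calls between the lines without a call against WT. All of these genes were chosen after their values were seen.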

Additional observations from a re-analysis of the deposited data

Results flagged for a closer look

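The 9 genes flagged here, all named above, differed between the 2 deletion lines by a test of the difference itself (edgeR's quasi-likelihood test, adjusted p under 0.05 over 12910 genes, 2 libraries each). Of the 10 members this was Gdf15, at 2.62 on the log2 scale for line 2 minus line 1. The Gdf15 call was lost with DESeq2 (adjusted p = 0.147) and rests on 4 rounded counts in line 1 against 27 in line 2. Cdkn1c at 5.99, Tgfb2 at 5.05, Inhbb at 2.89, Tbx3 at 1.37, Ccnd2 at 0.85 and Smad3 at 0.75 were also higher in line 2. Cdc25b at -0.74 and Tnfrsf10b at -0.57 were lower in line 2. The value of Cdkn1c rests on 3 counts in line 1 against 196 in line 2, a log2 ratio of 6.00 with a 95% counting interval of 4.44 to 8.29. For the 8 genes that are no members, all 8 calls between the lines were kept with the replicate block and with DESeq2, and 6 in a fit of the 2 lines alone, where Ccnd2 and Tnfrsf10b were lost. Without line 2 replicate 1 or replicate 2, 4 and 3 of the 8 were kept. Without either WT library 6 were kept, without line 1 replicate 1 7 were kept, and without line 1 replicate 2 all 8. Of all genes tested, 12.6% were called between the lines. That share is no background for the 8 genes, because they were taken from list genes already called against WT in the same libraries. Of the pathway lists, Bmp4 at 3.51, Ets1 at 0.74, Plk2 at 0.65 and E2f1 at -0.55 were also called between the lines. They were not flagged, because neither comparison with WT called them.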

How the results depend on the processing

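Of 359 alternative values for the members, 314 kept direction and side of the threshold, 24 changed sign, 12 gained the threshold and 9 lost it. With the replicate block the members called became 6 in line 1 and 4 between the lines, and the genes called 4183 in line 1, 1565 in line 2 and 3506 between the lines. It changed no other call of a member. DESeq2 and the fit of only the 2 compared groups called 0 members in line 1. Without the low-count filter 2 members were called between the lines and 948 genes in line 2, and with only the 2 compared groups 792 genes in line 2. The cause was not tested, except that Gdf15 did not pass the filter in the fit of only WT and line 1. Cdkn2a in line 1 changed sign, to -0.000752 without the filter, -0.0186 with the replicate block and -0.0262 with the mean over transcripts.

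Leaving out 1 library at a time gave 753 to 2260 genes called in line 1, 22 to 797 in line 2 and 629 to 1900 between the lines, and 0 to 2, 0 to 0 and 0 to 1 members. The remaining library of a group is then assumed to vary like the other groups. Log2 fold changes that changed sign ranged in line 1 from -0.38 to 0.34 for Cdkn2a, -0.28 to 0.56 for Cdkn1a, -0.10 to 0.19 for Trp53 and -0.40 to 0.0271 for Cdkn1b. In line 2 they ranged from -0.29 to 0.0814 for Cdkn2a, -0.10 to 0.0353 for Mdm2, -0.75 to 0.0387 for Rb1, -0.0817 to 0.14 for Rbl1, -0.46 to 0.31 for Gdf15 and -0.11 to 0.22 for Cdkn2b. Between the lines they ranged from -0.44 to 0.29 for Cdkn2a, -0.76 to 0.0821 for Cdkn1a, -0.27 to 0.0200 for Trp53 and -0.31 to 0.12 for Cdkn1b. Running these settings also for the named list genes, in the comparisons that called them, was decided after the data were seen. With 2 libraries a group the intervals are wide, and for Gdf15 the depth gives 4 rounded counts in line 1.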
